A study of Mus musculus with 101 samples.

Results

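Subcutaneous fat of Inhbe knockout (KO) mice was compared with that of wild type (WT) mice, both on chow. The comparison held 7 KO libraries and 8 WT libraries, of the 101 bulk RNA-seq libraries of the series. The libraries were taken by their labels for genotype, diet and fat depot, and no measured value entered that choice. All mice were male and on a pure C57BL/6NTac background, and the labels of both groups give no treatment. The sources used here give neither the KO allele nor the age of the mice. The loss is not said to be restricted to a tissue. Groups used for values from other libraries were KO and WT subcutaneous fat on a high fat diet (HFD; 8 and 7 libraries), KO and WT epididymal fat on chow (7 and 8 libraries), and subcutaneous fat of chow-fed mice given an AAV8 vector that expressed mInhbe or GFP in the liver (10 and 10 libraries). The labels do not say whether the 2 depots came from the same mice. They number the libraries as biological replicates without naming cages or litters, so p-values measure the spread between these libraries.

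Inhbe encodes the subunit of activin E, a secreted ligand of the TGF-beta family that is made mostly by hepatocytes. Activins bind a type II receptor and a type I receptor, such as ALK4 (Acvr1b) or ALK7 (Acvr1c), and the activated receptors phosphorylate SMAD2 and SMAD3, which bind DNA with SMAD4. ALK7 is abundant in adipocytes, where its signalling is known to restrain the breakdown of stored triglyceride. The comparison asks what fat expresses when this liver-derived ligand is missing and no dietary load is applied.

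The KO libraries held 14095557 to 17676245 counts and the WT libraries 13634565 to 17288398, so that 3 counts, taken as the floor of detection, correspond to 0.170 to 0.220 CPM (counts scaled to a library total of 1e+06). Inhbe itself had 0 counts in all 7 KO libraries and all 8 WT libraries, so the deletion could not be checked in this tissue. The same gene was read at 2.42 to 46.0 CPM in subcutaneous fat of mInhbe AAV mice and at 0 in that of GFP AAV mice. All 12 adipocyte markers passed the filter on low counts. The subcutaneous marker Tbx15 had 21.7 to 38.4 CPM in KO and 22.6 to 34.6 CPM in WT libraries. The visceral mesothelial marker Upk3b had at most 0.113 CPM in KO libraries and 0 in WT libraries. Not all visceral markers were absent, since 3 of 8 passed the filter. Their list summed to 14.8 to 21.5 CPM in KO and 15.9 to 23.9 CPM in WT libraries. Acvr1c, the receptor ALK7, had 273, 282 and 354 CPM as lowest, median and highest KO values, against 166, 252 and 439 CPM in WT. Its difference did not pass the test (log2 fold change 0.25 ± 0.22, SE; edgeR adjusted p = 1).

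Among the 15 libraries, 4 of WT and 1 of KO stood apart. WT library 1 carried almost no lymph node transcript, with a summed level of 13 lymph node markers of 19.2 CPM, against 633 to 1369 CPM in KO and 931 to 1489 CPM in the other WT libraries. WT libraries 6, 7 and 8 were high in inflammatory transcript. Their summed levels of inflammatory cytokines and chemokines were 318, 384 and 159 CPM, against 38.8 to 104 CPM in KO and 12.4 to 74.0 CPM in the other 5 WT libraries. The same 3 libraries had the lowest summed adipocyte markers, at 32506, 33343 and 42292 CPM, against 47626 to 58867 CPM in KO and 46877 to 59469 CPM in the other WT libraries. KO library 5 stood apart from the other 6 of its group. It had 13233 CPM of summed lipogenesis genes, against 33617 to 46020 CPM in the other KO libraries, and 21752 CPM of extracellular matrix genes, against 11759 to 15192 CPM. Its macrophage markers summed to 1566 CPM and its SMAD targets to 4033 CPM, against 599 to 869 CPM and 1462 to 1964 CPM in the other KO libraries. In bulk tissue, fewer cells of a type and less RNA per cell cannot be told apart.

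**Figure D1:**
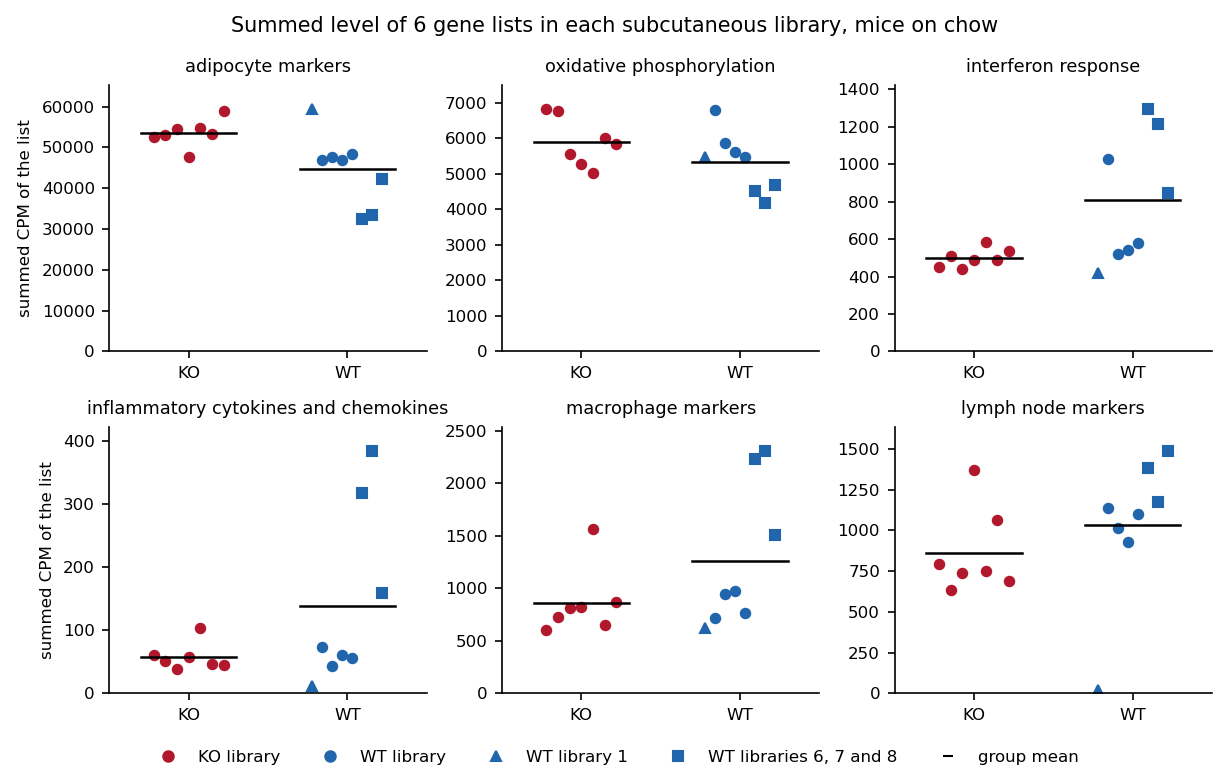
Summed CPM of 6 gene lists in each chow subcutaneous library, KO left and WT right; each point is 1 library and the line is the group mean. WT libraries 6, 7 and 8 (squares) are the lowest in adipocyte markers and the highest in inflammatory transcript, and WT library 1 (triangle) has 19.2 CPM of lymph node markers.

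Loss of Inhbe changed few genes in subcutaneous fat on chow, and the large changes were mostly falls. Of 14220 genes tested with edgeR's quasi-likelihood test, 36 (0.253%) passed an adjusted p of 0.05 (Benjamini-Hochberg) and are termed called. Of these, 19 (0.134%) were higher in KO and 17 (0.12%) lower. The falls had a median log2 fold change of -1.76, and 15 of the 17 were at least 2-fold. The rises had a median of 0.97, and 6 of the 19 were at least 2-fold. At an unadjusted p under 0.05, 950 genes (6.68%) differed, 519 (3.65%) higher and 431 (3.03%) lower in KO. In 45 of all tested genes (0.316%) the KO and WT values did not overlap, 28 (0.197%) with KO above and 17 (0.12%) with KO below. These included 9 of the 19 rises and 10 of the 17 falls. The median over all genes was -0.02. Just outside the threshold stood Rsad2 (adjusted p = 0.0537), Fam20c (0.0563) and Atg7 (0.0604).

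Both counts depended on which library was left out. The number of rises was 10 without KO library 1, 8 without KO 2, 33 without KO 4, 12 without KO 6, 10 without KO 7, 68 without WT 1 and 10 without WT 8. The number of falls was 36 without WT 1, 27 without WT 3 and 26 without WT 5. Without WT libraries 6, 7 and 8 together, a fit added after seeing the data, 14 of the 17 falls and 2 of the 19 rises were called, and all 36 kept their sign. In that fit the median of the 17 falls was -2.0 and that of the 19 rises 0.77. Without KO library 5, 16 of the falls and 17 of the rises were called, and all 36 kept their sign. In a fit of the 2 chow groups alone, 11 of the falls and 5 of the rises were called (Slc25a10, Gsdme, Cth, Tfr2 and Arhgef37). Of the 36 calls, 10 were kept in all 22 alternatives other than the 3 added after seeing the data, namely Mest, Vnn1, Pmepa1, Peg3, Kcne1l, Tmem45b, Smim10l2a, Slc25a10, Gsdme and Cth.

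Mest had the smallest p of all genes tested and fell to a small fraction of its WT level. Mest is an imprinted, paternally expressed gene for a hydrolase of the endoplasmic reticulum, known as a marker of fat expansion in mice. It had 1.47, 2.84 and 3.74 CPM as lowest, median and highest KO values, against 15.7, 39.4 and 56.0 CPM in WT. Every KO library lay below every WT library, and the log2 fold change was -3.75 ± 0.36 (SE; adjusted p = 1.69e-07). A pair of its neighbours on chromosome 6 fell with it. Klf14, an imprinted Krüppel-like transcription factor gene expressed from the maternal allele, had 0.129, 0.278 and 0.408 CPM in KO, against 0.859, 1.63 and 2.48 CPM in WT (-2.55 ± 0.46; adjusted p = 0.00444), again with no overlap. Klf14 was not called with limma-voom (adjusted p = 0.0655). Cep41, a gene for a centrosomal and ciliary protein, had 4.66, 5.99 and 8.14 CPM in KO, against 7.93, 10.7 and 11.9 CPM in WT (-0.73 ± 0.15; adjusted p = 0.0168). The Cep41 groups overlapped in 1 WT library, and its call was lost without KO library 2 (adjusted p = 0.0641).

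The 3 genes lie together in the reference. By RefSeq's GRCm38.p6, Cep41 spans chr6:30653457-30710517, Mest chr6:30733506-30748466 and Klf14 chr6:30956021-30958990. The gap from Cep41 to Mest is 23.0 kb and that from Mest to Klf14 208 kb. Of 20 annotated genes within 500 kb of Mest, 10 were tested and 3 called, Mest included. Copg2, which overlaps the 3′ end of Mest on the annotation and codes for a coatomer subunit, averaged 62.5 ± 2.50 CPM in KO and 65.0 ± 5.15 CPM in WT (log2 fold change 0.02, adjusted p = 1). Means are given ± SD over the 7 KO and 8 WT libraries throughout, and fold changes ± SE. Whether reads were counted by strand is not given in the sources used here, so reads in the Mest and Copg2 overlap cannot be assigned to either from these counts.

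The other imprinted falls were Peg3 and Zim1, neighbours on chromosome 7. Peg3, a paternally expressed zinc finger gene, had 13.7, 17.1 and 24.6 CPM in KO, against 45.8, 83.9 and 180.4 CPM in WT (-2.37 ± 0.38; adjusted p = 0.00119). Zim1, a maternally expressed zinc finger gene of the same domain, had 0.210, 0.451 and 0.800 CPM in KO, against 0.953, 2.31 and 4.01 CPM in WT (-2.39 ± 0.52; adjusted p = 0.0320). Neither gene's groups overlapped, and the highest WT value of each was in WT library 1. Zim1 was called in only 7 of the 15 fits that left out 1 library, with an adjusted p of up to 0.105. It lost its call without KO 1, 2, 4, 6 or 7 and without WT 2, 7 or 8. Peg3 spans chr7:6703892-6730462 and Zim1 chr7:6674444-6696540, 7.35 kb apart. Of 29 annotated genes within 500 kb of Peg3, 11 were tested and 2 called, Peg3 included.

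Across the list of imprinted genes, 4 of 21 tested fell (Mest, Peg3, Klf14 and Zim1) and none rose. Over all genes tested, 0.12% fell and 0.134% rose. The list was chosen with earlier results of these data known. Of the 21, 13 were lower and 8 higher in KO, with a median of -0.10, against -0.02 for all genes. The same count of 4 falls was found without WT libraries 6, 7 and 8. Snrpn, another imprinted gene, did not pass the filter on low counts, with 0 to 0.136 CPM in KO and 0 to 11.2 CPM in WT libraries. It overlaps Snurf, with which it may share reads, so its values are uncertain.

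The start regions of the imprinted genes Mest, Peg3 and Zim1, of Cep41 next to Mest, and of Slc5a7, the largest fall, are shown. No window was available for Klf14. The Cep41 window lies at a start site within the annotated span of the gene and not at the 5′ end of that span. SMAD proteins bind a short sequence, CAGAC or its reverse complement GTCTG (the Smad box). Each window runs from 250 bases before to 50 after a start site of the gene's transcript, 5′ to 3′ on the gene's strand, as given by RefSeq for GRCm38.p6. Capitals mark CAGAC and GTCTG.
Mest, upstream start, chr6:30733256-30733555, plus strand: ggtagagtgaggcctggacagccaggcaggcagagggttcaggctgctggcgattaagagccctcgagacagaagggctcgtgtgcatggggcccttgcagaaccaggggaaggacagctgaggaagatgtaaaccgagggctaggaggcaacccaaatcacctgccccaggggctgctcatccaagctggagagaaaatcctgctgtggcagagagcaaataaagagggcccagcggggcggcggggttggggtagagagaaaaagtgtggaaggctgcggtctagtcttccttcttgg
Mest, downstream start, chr6:30737800-30738099, plus strand: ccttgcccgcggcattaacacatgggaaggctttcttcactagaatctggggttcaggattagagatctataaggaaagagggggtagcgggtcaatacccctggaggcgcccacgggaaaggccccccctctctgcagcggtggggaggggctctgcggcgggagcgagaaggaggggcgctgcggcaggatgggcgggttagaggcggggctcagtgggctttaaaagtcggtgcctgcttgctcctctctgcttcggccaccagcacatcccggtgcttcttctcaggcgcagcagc
Cep41, chr6:30693700-30693999, minus strand: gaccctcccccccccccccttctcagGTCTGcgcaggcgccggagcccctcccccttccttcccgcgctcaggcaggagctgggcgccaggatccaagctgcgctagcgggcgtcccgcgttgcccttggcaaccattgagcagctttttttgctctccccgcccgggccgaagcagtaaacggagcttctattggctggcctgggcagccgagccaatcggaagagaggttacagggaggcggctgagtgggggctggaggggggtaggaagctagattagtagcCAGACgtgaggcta
Peg3, chr7:6730370-6730669, minus strand: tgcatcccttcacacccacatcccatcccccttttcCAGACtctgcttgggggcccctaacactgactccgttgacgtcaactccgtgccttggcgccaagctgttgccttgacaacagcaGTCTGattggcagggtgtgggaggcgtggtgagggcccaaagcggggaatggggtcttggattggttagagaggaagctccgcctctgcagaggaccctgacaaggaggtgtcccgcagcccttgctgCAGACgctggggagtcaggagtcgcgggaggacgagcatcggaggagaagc
Zim1, chr7:6696383-6696682, minus strand: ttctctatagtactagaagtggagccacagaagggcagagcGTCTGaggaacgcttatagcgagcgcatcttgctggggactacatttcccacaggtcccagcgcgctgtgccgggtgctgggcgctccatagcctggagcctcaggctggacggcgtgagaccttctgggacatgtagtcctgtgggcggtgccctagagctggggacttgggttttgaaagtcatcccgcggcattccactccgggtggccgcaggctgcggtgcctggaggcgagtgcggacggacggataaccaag
Slc5a7, chr17:54298985-54299284, minus strand: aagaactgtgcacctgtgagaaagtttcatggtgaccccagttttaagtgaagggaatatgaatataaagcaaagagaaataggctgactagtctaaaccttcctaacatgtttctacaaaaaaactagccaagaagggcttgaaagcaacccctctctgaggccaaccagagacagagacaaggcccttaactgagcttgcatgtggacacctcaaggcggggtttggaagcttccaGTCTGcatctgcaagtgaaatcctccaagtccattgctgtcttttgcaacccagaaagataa
The Peg3 window held 3 copies of the motif, Cep41 2, and Zim1 and Slc5a7 1 each. Neither Mest window held a copy. The windows differed in CpG content, with 20 CpG dinucleotides in Zim1, 19 in Cep41, 17 in the downstream Mest window and 1 in Slc5a7, against a median of 7 over all windows. A window was given for 24 of the 36 called genes. At least 1 copy of CAGAC on either strand was found for 9 of the 12 falls and 8 of the 12 rises among them, in 59.4% of their 32 windows, against 49.6% of all 32851 windows. The palindrome GTCTAGAC was in none of the 32 and in 0.213% of all, and TGANTCA, the AP-1 motif, in 12.5% and 7.81%. These matches are letters in a window and not measured binding.

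Slc5a7, the gene for the high-affinity choline transporter known from cholinergic neurons, had the largest fall. By RefSeq's GRCm38.p6 it spans chr17:54273590-54299038. It had 3 counts or fewer in 5 of the 7 KO libraries, with 0, 0.139 and 0.849 CPM as lowest, median and highest KO values, against 0.463, 2.84 and 13.6 CPM in WT. The log2 fold change was -3.90 ± 0.68 (adjusted p = 0.00406). The groups overlapped, since KO library 2 reached 0.849 CPM and WT library 8 had 0.463 CPM. Its call was lost with limma-voom (adjusted p = 0.117) and in the fit of the 2 groups alone (adjusted p = 0.0582). No other gene of the choline and acetylcholine list was called by edgeR or DESeq2, with 11 tested. The list does not hold Chpt1 and Chrna2, which are among the called rises.

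The TGF-beta pathway itself moved little on chow. Pmepa1, a SMAD target whose membrane protein binds SMAD2 and SMAD3 and damps their signalling, was the exception. The gene lies at chr2:173224458-173276731. It had 35.7, 57.5 and 89.9 CPM in KO, against 177, 199.7 and 271 CPM in WT, with no overlap (-1.76 ± 0.23; adjusted p = 4.66e-05). Pmepa1 was the only gene called by edgeR among 18 tested SMAD targets, and DESeq2 also called 1. At an unadjusted p under 0.05 in edgeR, 4 of the 18 were lower and 0 higher, against 3.03% of all genes lower. In sign, 13 of the 18 were lower in KO. The list's median was -0.26, against -0.02 for all genes. It was -0.09 without WT libraries 6, 7 and 8 and -0.27 without KO library 5.

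No gene was called by edgeR or DESeq2 among 11 ligands, 12 receptors and co-receptors, 14 antagonists and 13 SMAD proteins and partners. At an unadjusted p under 0.05, 1 ligand was higher and 1 lower, 1 receptor was lower, and 0 of the others differed. Acvr1b, the receptor ALK4, had 17.1, 20.5 and 25.6 CPM in KO, against 26.3, 31.0 and 36.4 CPM in WT. Its groups did not overlap, yet the difference did not pass the test (-0.50 ± 0.19; adjusted p = 0.433). Inhbb, the activin B subunit gene that adipocytes express, averaged 62.2 ± 13.0 CPM in KO and 47.7 ± 7.45 CPM in WT (0.46 ± 0.18; adjusted p = 0.541). The medians of the 4 lists were -0.20 for ligands, -0.08 for receptors, -0.22 for antagonists and 0.00 for SMAD proteins. Without WT libraries 6, 7 and 8 they were -0.14, -0.10, -0.05 and 0.00 in the same order, and without KO library 5 that of the antagonists was -0.31.

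Among the remaining falls, Vnn1 stood out by its p. Vnn1 encodes a pantetheinase, which splits pantetheine into cysteamine and pantothenate, and lies at chr10:23894688-23905344. It had 2.47, 3.74 and 6.75 CPM in KO, against 15.0, 22.2 and 34.0 CPM in WT (-2.48 ± 0.28; adjusted p = 6.04e-06). The lowest WT value was above the highest KO value. Kcne1l (chrX:142304753-142306198), also called Kcne5, encodes an accessory subunit of voltage-gated potassium channels. It had 0.139, 0.622 and 1.21 CPM in KO, against 1.89, 2.33 and 3.93 CPM in WT (-1.96 ± 0.31; adjusted p = 0.00119), and was the only gene called by edgeR among 8 channel genes tested (DESeq2 also called 1).

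Sez6l, a gene for a transmembrane protein best known from neurons, had 0.0644, 0.140 and 0.339 CPM in KO, against 0.264, 2.07 and 4.08 CPM in WT (-3.50 ± 0.56; adjusted p = 0.00119). Its groups overlapped in WT library 8, and WT libraries 6, 7 and 8 held its 3 lowest WT values. Sez6l had only 1 to 6 counts in KO libraries, near or below the floor of 3 counts. It did not pass the low-count filter in the fit of the 2 groups alone and was not tested there. Prps1, which makes phosphoribosyl pyrophosphate for nucleotide synthesis, averaged 79.8 ± 7.31 CPM in KO and 132 ± 24.5 CPM in WT (-0.66 ± 0.13; adjusted p = 0.0105). It was called in all 15 fits that left out 1 library and not in the fit of the 2 groups alone (adjusted p = 0.0632).

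Of the other falls, Tmem45b and Emp1 encode membrane proteins. Tmem45b had 78.7, 115 and 135 CPM in KO, against 155, 268 and 353 CPM in WT, with no overlap (-1.11 ± 0.17; adjusted p = 0.00103). Emp1 averaged 162 ± 40.5 CPM in KO and 366 ± 69.8 CPM in WT (-1.12 ± 0.23; adjusted p = 0.0179), and lost its call without KO 2, 5 or 7 (adjusted p up to 0.0671). Gzmb, the gene for granzyme B of cytotoxic lymphocytes, averaged 0.971 ± 0.352 CPM in KO and 3.34 ± 2.25 CPM in WT (-1.67 ± 0.33; adjusted p = 0.0133). Its call was lost without KO library 2 (adjusted p = 0.0523) and without WT libraries 6, 7 and 8 (adjusted p = 0.194), which were also high in inflammatory transcript. No gene of the T cell marker list was called by edgeR or DESeq2, with 12 tested, 0 at an unadjusted p under 0.05 and a median of -0.04. Whether cytotoxic cell number had a part in the Gzmb result was not tested.

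Anxa8, an annexin gene, averaged 7.44 ± 1.59 CPM in KO and 17.5 ± 6.47 CPM in WT, with no overlap (-1.20 ± 0.27; adjusted p = 0.0390). It was called in 7 of the 15 fits that left out 1 library, and not without KO 1, 2, 3, 4, 6 or 7 or WT 1 or 8 (adjusted p up to 0.103). Smim10l2a averaged 0.585 ± 0.298 CPM in KO and 1.85 ± 0.668 CPM in WT (-1.54 ± 0.31; adjusted p = 0.0141). Without WT libraries 6, 7 and 8, neither was called (adjusted p = 0.0569 and 0.0786).

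**Figure D2:**
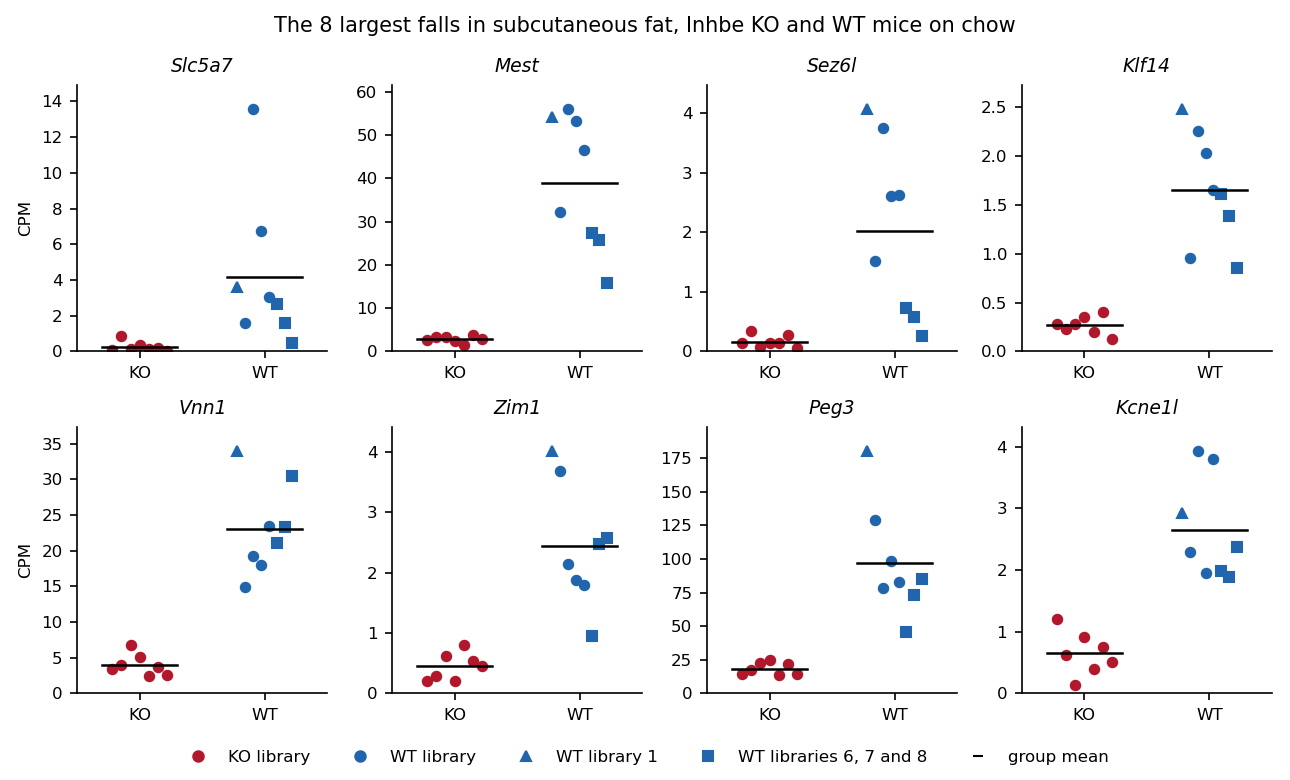
CPM in each chow subcutaneous library of the 8 called genes with the largest falls and a mean of at least 1 CPM, KO left and WT right; each point is 1 library and the line is the group mean. KO libraries lie below all WT libraries for Mest, Klf14, Vnn1, Zim1, Peg3 and Kcne1l, and overlap with WT for Slc5a7 and Sez6l.

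Several of the genes that rose encode enzymes or carriers of metabolites and lipids, each changed by less than 2-fold. Slc25a10 (chr11:120491837-120501161), the mitochondrial dicarboxylate carrier that exchanges malate and succinate for phosphate and is abundant in white fat, had 232, 353 and 382 CPM in KO, against 148, 168 and 224 CPM in WT. All 7 KO libraries lay above all WT libraries (0.97 ± 0.15; adjusted p = 0.00115). Pygl, the liver type of glycogen phosphorylase, averaged 246 ± 41.9 CPM in KO and 156 ± 30.9 CPM in WT (0.72 ± 0.16; adjusted p = 0.0303), without overlap. Chpt1, which makes phosphatidylcholine from CDP-choline, averaged 1209.6 ± 184 CPM in KO and 778 ± 145 CPM in WT (0.70 ± 0.14; adjusted p = 0.0179). Fabp5, a cytosolic fatty acid binding protein gene, averaged 127 ± 24.6 CPM in KO and 80.6 ± 12.6 CPM in WT (0.73 ± 0.16; adjusted p = 0.0299).

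Cth rose to 9.47, 11.0 and 16.6 CPM as lowest, median and highest KO values, against 4.57, 6.73 and 7.60 CPM in WT (0.99 ± 0.17; adjusted p = 0.00292). Cth encodes cystathionine gamma-lyase, which makes cysteine from cystathionine, and no KO library overlapped with WT. Among 15 sulfur amino acid and glutathione genes tested, edgeR called 1 rise, Cth, and 1 fall, Vnn1, while DESeq2 called 3 rises and 1 fall. Rbp4, the retinol carrier and adipokine, averaged 239 ± 35.9 CPM in KO and 149 ± 31.1 CPM in WT (0.75 ± 0.15; adjusted p = 0.0179). It was the only one of 10 tested adipokine genes called by edgeR, and DESeq2 also called 1.

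The iron handling and acute-phase lists held 1 rise each by edgeR. Tfr2 (chr5:137569822-137588081), a transferrin receptor known as an iron sensor of the liver, had 5.57, 6.28 and 7.73 CPM in KO, against 1.76, 2.75 and 4.74 CPM in WT, without overlap (1.18 ± 0.24; adjusted p = 0.0179). Orm1, an acute-phase plasma protein gene, had 117, 176 and 209 CPM in KO, against 50.4, 91.4 and 111 CPM in WT, also without overlap (0.99 ± 0.17; adjusted p = 0.00391). Of 10 iron genes tested, DESeq2 called 2 higher, and of 11 acute-phase genes it called 1 higher and 1 lower. Orm1 has near-identical paralogs between which reads may be split, so its values are uncertain.

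Gsdme, which encodes the pore-forming gasdermin E of cell death, had 2.71, 4.13 and 6.52 CPM in KO, against 1.52, 2.48 and 2.62 CPM in WT (1.02 ± 0.17; adjusted p = 0.00119). No KO value fell within the WT range. Of 13 tested genes of the pore formation list, edgeR called only Gsdme, while DESeq2 called 1 higher and 1 lower and 3 were lower at an unadjusted p under 0.05. Cdkn2c, an inhibitor of the cyclin D kinases CDK4 and CDK6, averaged 207 ± 26.5 CPM in KO and 136 ± 22.6 CPM in WT, without overlap (0.67 ± 0.13; adjusted p = 0.0155). None of 14 tested proliferation genes was called by edgeR or DESeq2, and 0 differed at an unadjusted p under 0.05.

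Gm9696 had the largest rise by log2 fold change, at very low counts. It is annotated as a transcribed pseudogene. It had 0.568, 1.05 and 2.92 CPM in KO, against 0, 0.0649 and 0.752 CPM in WT (3.08 ± 0.46; adjusted p = 6.42e-04), or 8 to 43 counts in KO libraries and 0 to 13 in WT libraries. As a pseudogene it may share reads with a parent gene, and its values are uncertain.

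Lrtm1 (chr14:29018208-29033642), a gene for a leucine-rich repeat membrane protein, had 13.2, 16.3 and 20.9 CPM in KO, against 3.57, 7.86 and 11.5 CPM in WT, without overlap (1.08 ± 0.21; adjusted p = 0.0105). Chrna2, a nicotinic acetylcholine receptor subunit known from beige adipocytes, had 4.87, 8.51 and 11.3 CPM in KO, against 3.28, 4.15 and 6.98 CPM in WT (0.97 ± 0.21; adjusted p = 0.0352). Chrna2 overlapped between the groups and was called in 6 of the 15 fits that left out 1 library, the lost calls falling without KO 1, 2, 6 or 7 or WT 3, 5, 6, 7 or 8 (adjusted p up to 0.126). Pnldc1, a ribonuclease gene known for trimming piRNAs in the testis, averaged 5.49 ± 1.52 CPM in KO and 2.68 ± 1.09 CPM in WT (1.11 ± 0.23; adjusted p = 0.0200). Arhgef37, a guanine nucleotide exchange factor gene, averaged 5.36 ± 1.12 CPM in KO and 2.55 ± 0.523 CPM in WT, without overlap (1.15 ± 0.25; adjusted p = 0.0299).

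The remaining 4 rises were Aqp11 (an aquaporin gene, 0.95 ± 0.20), Lctl (a klotho-related glycosidase gene, 0.95 ± 0.20), Ntn3 (a netrin gene, 0.89 ± 0.19) and Stx2 (a membrane fusion gene of the syntaxin family, 0.40 ± 0.09), with adjusted p between 0.0179 and 0.0432. Stx2 was the least stable and was called in 3 of the 15 fits that left out 1 library. It kept its call only without KO 4, WT 1 or WT 7, and had an adjusted p of up to 0.118. Fabp5 was called in 6 of the 15, with losses without KO 1, 2, 6 or 7 or WT 3, 4, 5, 7 or 8. Arhgef37 and Pygl were called in 8 each, with losses without KO 1, 2, 6 or 7 or WT 7 or 8 for both, and also without WT 5 for Arhgef37 and WT 6 for Pygl.

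Removal of KO library 2 ended the calls of Cdkn2c, Rbp4, Chpt1, Lctl, Ntn3 and Pnldc1 too, with adjusted p of up to 0.0860 in these genes over all single-library removals. Some of them were also lost without KO 1 (Cdkn2c, Rbp4, Lctl and Ntn3), KO 6 (Chpt1 and Pnldc1), KO 7 (Chpt1, Lctl and Ntn3), WT 7 (Ntn3 and Pnldc1) or WT 8 (Lctl, Ntn3 and Pnldc1). Tfr2 lost its call without KO 1 or KO 7 (adjusted p up to 0.0609), and Aqp11 without KO 5 or WT 8 (adjusted p up to 0.0635). In all of these fits the genes stayed higher in KO. Without WT libraries 6, 7 and 8, which were low in adipocyte transcript, the rises of Gm9696 (2.74; adjusted p = 0.0169) and Gsdme (1.01; adjusted p = 0.0125) were called and the other 17 were not. The part of adipocyte content in these rises was not tested.

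**Figure D3:**
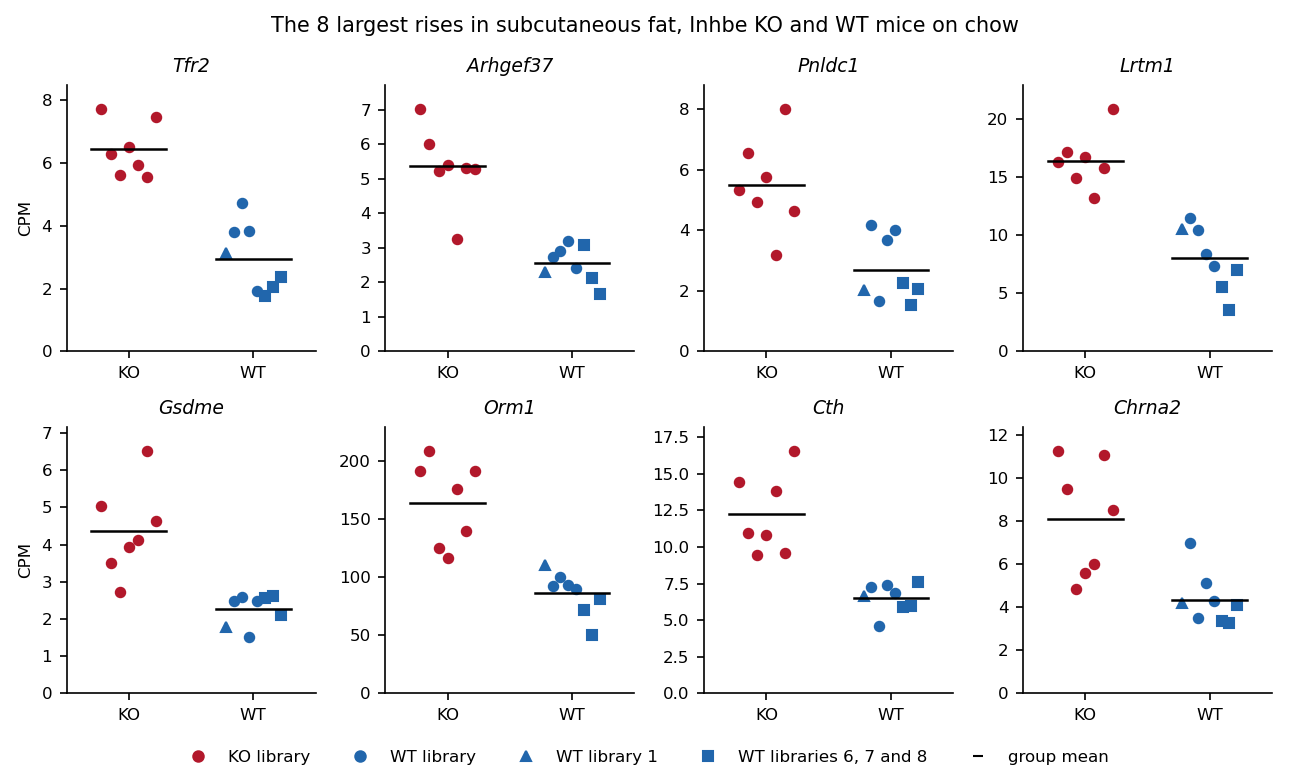
CPM in each chow subcutaneous library of the 8 called genes with the largest rises and a mean of at least 1 CPM, KO left and WT right; each point is 1 library and the line is the group mean. KO libraries lie above all WT libraries for Tfr2, Arhgef37, Lrtm1, Gsdme, Orm1 and Cth, and overlap with WT for Pnldc1 and Chrna2.

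Lists of fat cell metabolism were mostly positive in KO, by small amounts, and lost most of that shift without WT libraries 6, 7 and 8. Of 12 adipocyte markers, none was called and 11 were higher in KO, with a median of 0.28 that was 0.06 without the 3 libraries. Of 24 PPARG targets, 2 rose (Rbp4 and Fabp5) and 23 were higher, with a median of 0.27, or 0.06 without them. All 25 oxidative phosphorylation genes and all 13 mitochondrially encoded genes were higher in KO, with none called. Their medians were 0.21 and 0.30, or 0.02 and 0.11 without the 3 libraries. Over all genes 45.5% were positive. At an unadjusted p under 0.05, 3 adipocyte markers, 2 oxidative phosphorylation genes and 1 mitochondrially encoded gene were higher, and DESeq2 called 0 on these 3 lists. The same 3 WT libraries were the lowest in summed adipocyte markers, and the part of cell makeup in the medians was not tested.

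The lipogenesis list had no call among 21 genes, with 17 higher in KO and a median of 0.25, or 0.07 without WT libraries 6, 7 and 8. Fasn, the fatty acid synthase gene, had 3649, 5669 and 9082 CPM in KO, against 1004, 2739 and 4457 CPM in WT (1.18 ± 0.31; adjusted p = 0.119). Elovl6, an elongase of its products, averaged 91.1 ± 46.5 CPM in KO and 43.5 ± 16.4 CPM in WT (1.15 ± 0.33; adjusted p = 0.165). At an unadjusted p under 0.05, 7 genes of the list were higher, and with DESeq2 2 rose. Triglyceride synthesis (13 genes, median 0.30, or 0.08 without WT libraries 6, 7 and 8) and fatty acid oxidation (21 genes, median 0.17, or -0.04 without them) had no call by edgeR. On these lists 5 and 4 genes were higher at an unadjusted p under 0.05, and DESeq2 called 0 and 1. Of 13 fatty acid uptake genes only Fabp5 rose by edgeR, with a list median of 0.22, or 0.09 without the 3 libraries.

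The breakdown of triglyceride, which activin E is known to restrain, showed no call. None of 15 lipolysis genes passed the test by edgeR or DESeq2, 3 were higher at an unadjusted p under 0.05, and their median was 0.19 with all libraries and -0.07 without WT libraries 6, 7 and 8. Pnpla2, the adipose triglyceride lipase gene, averaged 2031 ± 210.2 CPM in KO and 1834 ± 445 CPM in WT (0.20 ± 0.18). Lipe, the hormone-sensitive lipase gene, averaged 1406 ± 147 CPM in KO and 1286 ± 281 CPM in WT (0.19 ± 0.16; adjusted p = 1 for both). No thermogenic gene was called among 12 tested by edgeR or DESeq2, and 1 was lower at an unadjusted p under 0.05. That was Ucp1, the uncoupling protein gene of brown fat, which reached 2.26 CPM at most in KO libraries and 83.4 CPM in 1 WT library. The thermogenic median was -0.02, or -0.35 without WT libraries 6, 7 and 8, where 10 of the 12 genes were lower. Antilipolytic signalling (12 genes, 0 called by edgeR or DESeq2) had a median of -0.07, or -0.18 without them, where 11 were lower.

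Inflammatory and interferon genes were lower in KO without any call by edgeR, and the inflammatory shift lay largely in WT libraries 6, 7 and 8. All 10 inflammatory cytokine and chemokine genes were lower in KO, with a median of -1.88. Without the 3 libraries the median was 0.19 and 7 of the 10 were higher. These libraries were picked for their high level of this same list. A rise of its median on their removal follows from that choice and is no separate result. Macrophage markers (15 genes, 0 called by edgeR, 6 lower at an unadjusted p under 0.05, 1 called by DESeq2) had a median of -0.55 with all libraries and 0.18 without the 3. All 15 interferon response genes were lower in KO in both fits, with medians of -1.01 and -0.34 and no call in either. Their summed level was 1296, 1215 and 847 CPM in WT libraries 6, 7 and 8 and 1030 CPM in WT library 2, against 438 to 585 CPM in KO and 421 to 582 CPM in the other 4 WT libraries. With the lymph node score as covariate, edgeR called 4 interferon genes lower. At an unadjusted p under 0.05 and with all libraries, 13 of the interferon genes and 7 of the inflammatory genes were lower. With DESeq2, 7 of the interferon genes and 5 of the inflammatory genes fell. Rsad2, the antiviral enzyme viperin, had 10.1, 12.1 and 17.1 CPM in KO, against 15.5, 23.1 and 58.9 CPM in WT (-1.10 ± 0.25; adjusted p = 0.0537).

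Alb, the serum albumin gene, had 71.6, 83.1 and 102 CPM in KO, against 16.7, 29.4 and 36.7 CPM in WT, without overlap. It was not called in the shared fit (1.74 ± 0.57; adjusted p = 0.317), in which 2 HFD libraries were high in Alb. It was called in a fit of the 2 chow groups alone (adjusted p = 2.81e-04), without those 2 HFD libraries (adjusted p = 0.00292) and by DESeq2 (adjusted p = 0.0139). It was lower with mInhbe than with GFP (-1.59 ± 0.21; adjusted p = 5.30e-05). Of the 13 liver markers only Alb and Fgg were tested, and the other 11 had at most 0.679 CPM in KO and 0.529 CPM in WT libraries. The mean log2(CPM + 1) of the list was 0.08 higher in KO (2-sided exact permutation p = 0.0993). Scores of lymph node, skeletal muscle, skin and mammary epithelium, and epididymis genes had exact permutation p between 0.170 and 0.994 in the same test, and over the 5 scores no adjusted p was under 0.425.

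**Figure D4:**
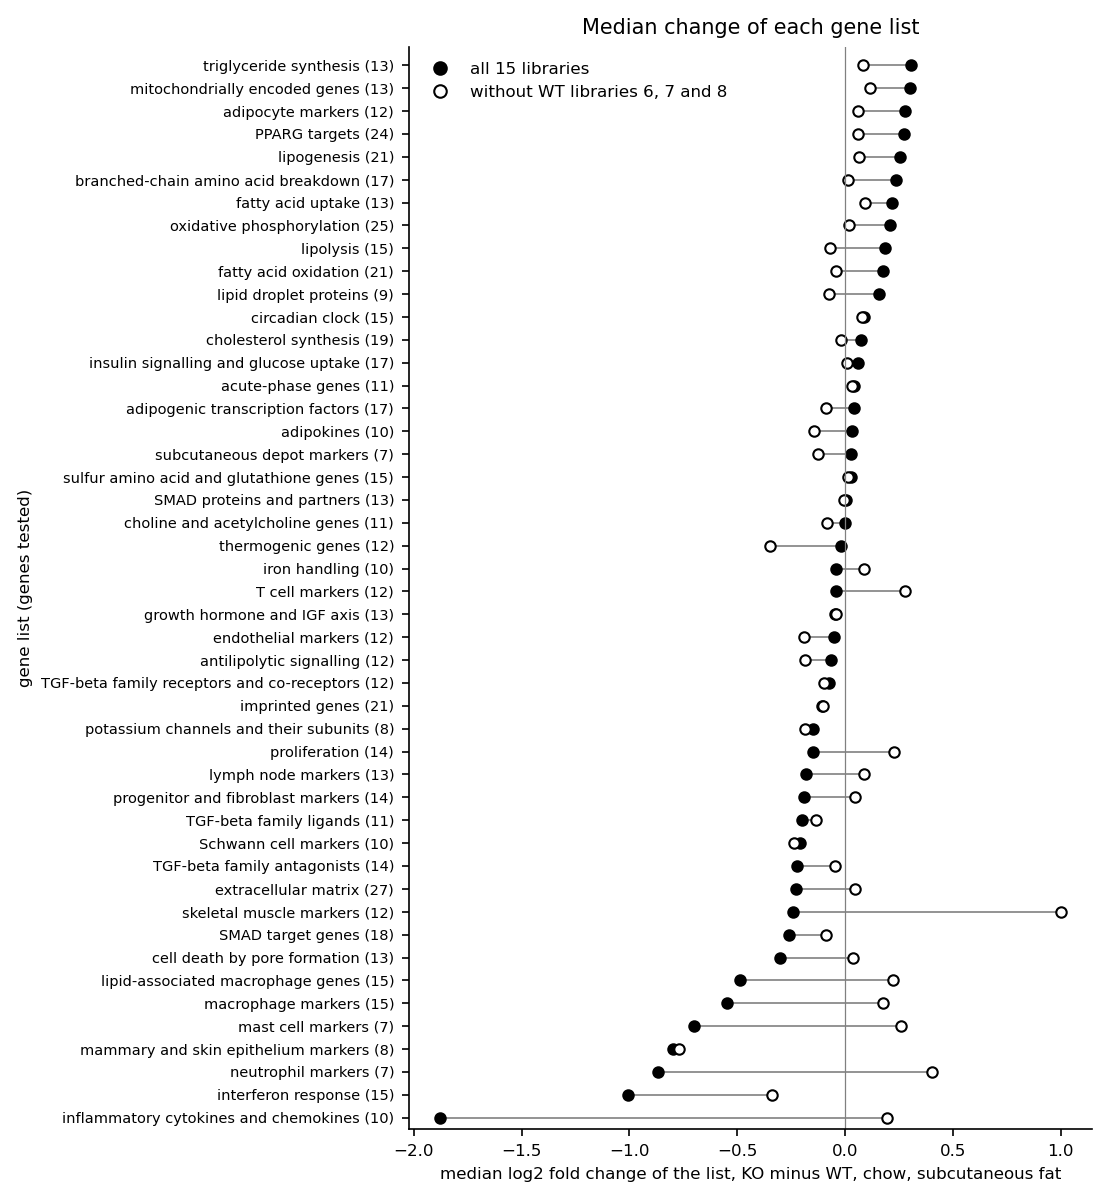
Median log2 fold change of each gene list with at least 5 genes tested, KO minus WT, with all 15 libraries (filled) and without WT libraries 6, 7 and 8 (open); numbers in brackets are genes tested. The medians of most metabolic lists move closer to 0 without these libraries, and that of imprinted genes stays at -0.10. Those of thermogenic genes (-0.02 to -0.35), antilipolytic signalling (-0.07 to -0.18) and adipokines (0.03 to -0.14) move to more negative values. The median of inflammatory genes moves from -1.88 to 0.19, which follows from picking the libraries by their high inflammatory transcript.

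Values of the 36 genes in libraries outside the comparison follow. The HFD libraries shared the filter and the estimate of spread with the fit that called the 36 genes, though not its contrast, while the other libraries were in separate fits. In subcutaneous fat on HFD, where 2688 of 14220 genes (18.9%) were called between KO and WT, 11.6% lower and 7.32% higher, 15 of the 17 genes that fell on chow also fell and 15 of the 19 that rose also rose. Their medians on HFD were -1.95 and 0.89. The exceptions were Tmem45b and Gzmb among the falls and Orm1, Tfr2, Lctl and Fabp5 among the rises. Of the genes called in the fit of the 2 chow groups alone, which held no HFD library, 10 of 11 falls and 8 of 12 rises were called in the same direction on HFD. Mest averaged 45.7 ± 21.0 CPM in KO and 1334 ± 331 CPM in WT on HFD (SD, n = 8 and 7; log2 fold change -4.71). Peg3 averaged 11.7 ± 3.24 CPM in KO and 202 ± 120.4 CPM in WT on HFD (-3.95).

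In epididymal fat on chow, 99 genes (0.658%) were called, 0.485% lower and 0.173% higher in KO. Of the 17 subcutaneous falls 11 also fell there, and of the 19 rises 6 also rose (Gm9696, Lrtm1, Orm1, Slc25a10, Cdkn2c and Fabp5). All 36 had the same sign in both depots. The labels do not say whether the depots came from the same mice, so these libraries may not be independent of the subcutaneous ones. Slc5a7 averaged 0.324 ± 0.294 CPM in KO and 7.81 ± 4.09 CPM in WT epididymal fat (SD, n = 7 and 8; -4.49). Lrtm1 averaged 13.9 ± 3.59 CPM in KO and 3.14 ± 0.568 CPM in WT (2.18). Read the other way, 97.2% of the 71 tested genes that fell in epididymal fat were also lower in KO subcutaneous fat, with a median of -0.44, and 88% of the 25 that rose were higher, with a median of 0.54.

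With mInhbe given by AAV, most of the 36 genes moved the opposite way. Inhbe transcript was also higher in the subcutaneous fat of these mice (log2 fold change 10.96), and the part of expression in the fat itself was not tested. In subcutaneous fat of mInhbe AAV mice 27.2% of genes were called against GFP AAV mice, 15.8% higher and 11.4% lower. Of the 17 genes that fell in KO, 12 rose with mInhbe. Of 18 genes that rose in KO and were tested there, 15 fell with mInhbe. Mest averaged 287 ± 104 CPM with mInhbe and 62.5 ± 29.2 CPM with GFP (SD, n = 10 each; 2.10), and Peg3 173 ± 33.1 CPM with mInhbe and 43.3 ± 14.3 CPM with GFP (1.89). Tmem45b was the exception in direction, since it fell with mInhbe too (-0.60), with 168 ± 18.1 CPM against 238 ± 38.5 CPM with GFP. Klf14, Prps1, Gzmb and Anxa8 among the falls and Gsdme, Chpt1 and Arhgef37 among the rises were not called there. Of 2195 genes higher with mInhbe and tested in the chow comparison, 59.7% were lower in KO, against 54.5% of all genes. Of 1596 genes lower with mInhbe, 87.0% were higher in KO, against 45.5% of all genes. Without the WT libraries high in inflammatory transcript, 63.2% and 53.8% in that order were higher in KO, against 49.2% of all genes. The genes higher with mInhbe thus changed their lean with those libraries.

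**Figure D5:**
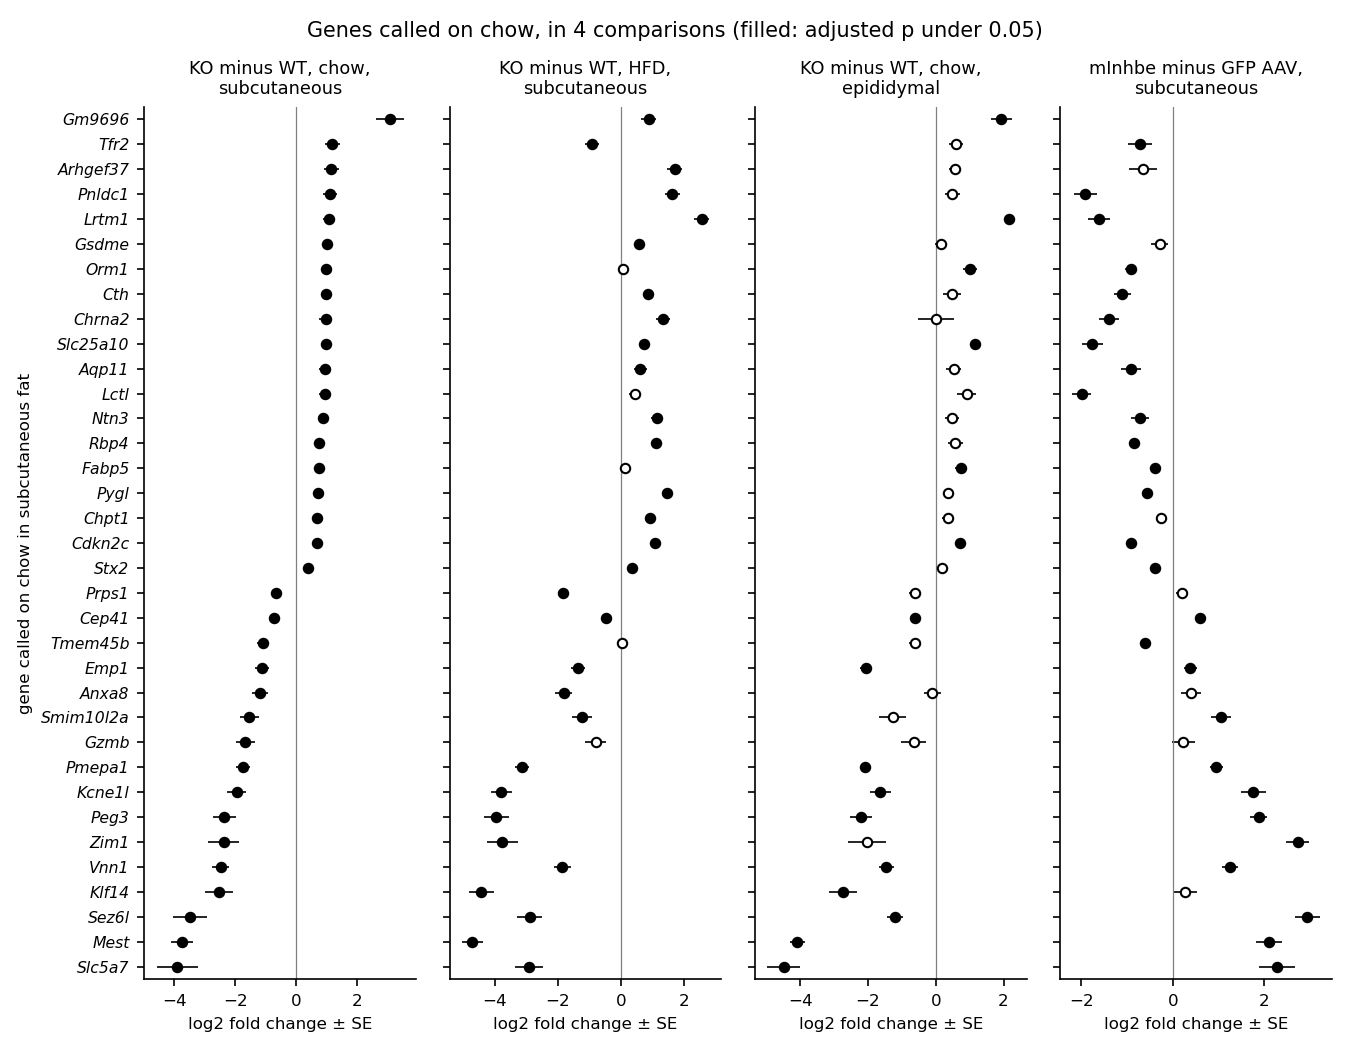
Log2 fold change ± SE of the genes called on chow in subcutaneous fat, except 1 that is not reported here, in that comparison and in 3 comparisons of other libraries; filled points have an adjusted p under 0.05. Most genes lie on the same side in KO mice on HFD and in epididymal fat and on the other side with mInhbe, while Tfr2 is higher in KO on chow and lower on HFD.

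The effect of KO differed between chow and HFD for 304 of 14220 genes (2.14%) by the interaction of genotype and diet. For 249 genes (1.75% of all tested) the KO log2 fold change was lower on HFD than on chow. For 55 genes (0.387% of all tested) it was higher. Among the 36 genes, 8 were called. Pmepa1, Kcne1l and Prps1 had a larger fall on HFD (-1.38, -1.83 and -1.16 on the log2 scale; adjusted p = 0.0111, 0.0255 and 1.77e-04). Lrtm1 had a larger rise on HFD (1.49; adjusted p = 0.00589), and Gm9696 (-2.19; adjusted p = 0.0222) and Orm1 (-0.91; adjusted p = 0.0453) a smaller one. Tmem45b fell on chow and was not called on HFD, where it averaged 470.4 ± 73.1 CPM in KO and 509 ± 78.4 CPM in WT (interaction 1.16; adjusted p = 0.00589).

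Tfr2 turned direction with diet, with an interaction of -2.10 ± 0.33 (adjusted p = 2.87e-04). It averaged 6.45 ± 0.860 CPM in KO and 2.95 ± 1.09 CPM in WT on chow, and 13.8 ± 2.34 CPM in KO and 28.7 ± 13.8 CPM in WT on HFD, where it fell (-0.92; adjusted p = 0.00418). The interactions share the chow libraries with the chow comparison and are not independent of it. For the difference between depots on chow, no gene of 15480 was called by edgeR (311 at an unadjusted p under 0.05; smallest adjusted p 0.147), and 19 were by DESeq2.

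Genes that changed on HFD leaned the same way on chow by small amounts. Of 1041 genes higher in KO on HFD, 80.0% were positive on chow with a median of 0.15, and of 1647 lower genes, 74.7% were negative with a median of -0.10. Over all genes 45.5% were positive and 54.5% negative. Without WT libraries 6, 7 and 8, 68.9% of the higher genes were positive and 68.8% of the lower genes negative, against 49.2% and 50.8% over all genes. The SMAD target list showed this by its counts, with 12 of 18 genes lower in KO on HFD and a median of -0.81, against 1 of 18 and -0.26 on chow. The 13 mitochondrially encoded genes all rose in KO on HFD with a median of 1.22, against 0 called by edgeR or DESeq2 and 0.30 on chow, or 0.11 without the 3 libraries. Branched-chain amino acid breakdown had 14 of 17 genes higher in KO on HFD, and on chow 0 called by edgeR, 1 by DESeq2, 5 higher at an unadjusted p under 0.05, and a median of 0.23 that was 0.01 without the 3 libraries. The extracellular matrix list had 17 of 27 genes lower in KO on HFD, and on chow 0 called by edgeR or DESeq2, with 1 higher and 3 lower at an unadjusted p under 0.05. Its chow median was -0.23 with all libraries, -0.35 without KO library 5, and 0.05 without WT libraries 6, 7 and 8, with 16 of 27 genes positive. Whether the lists differ between diets as lists was not tested.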

How the data were processed

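Bulk mRNA-seq libraries (KAPA mRNA HyperPrep kit, per the labels' protocols) were deposited as 2 tables of estimated counts per gene, one for the KO study and one for the AAV study. The submitters' processing notes name the build mm10. Aligner, counter, strand setting and use of molecular identifiers were not given in the sources used here. The authors' expected counts were not whole in 2.93% of values (tolerance 1e-06) and were rounded here. Of 24475 gene IDs, 24375 had a symbol by the RefSeq table; the other 100 held 0.492% to 1.40% of counts per library and stayed in the tests under their IDs.

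Whole counts had been assumed when the design was set, and the same tests were used. Low genes were removed by filterByExpr, which took a minimum count of 10 and a total of at least 15. TMM scaling came before the test in edgeR 4.0.16 (R 4.3.3), its quasi-likelihood F test with robust fitting, in a fit of all 30 subcutaneous libraries of the KO study. P-values were adjusted by Benjamini-Hochberg over all genes tested. Fold changes are log2, KO minus WT, and the SE was derived from each change and its F value as |change| / √F. CPM is counts per 1e+06 counts of the library total. The floor of 3 counts covers counting error only. Tested on simulated data made from these libraries (14220 genes), the fit recovered 50.75% of 67 genes changed 1.5-fold, 80.6% of 67 changed 2-fold and 96.97% of 66 changed 4-fold, with 10 false calls.

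Genes were described by library where they were among the 8 largest falls or rises called with a mean of at least 1 CPM, and any called gene could be named (1 is not reported here); from each of 50 gene lists, up to 4 called or 3 uncalled genes with the smallest p could be named. Pnpla2, Lipe, Copg2, Snrpn and the depot markers were named outside that rule, for their roles. The members and lists were chosen with earlier results of these data known. Alternatives were RLE scaling, DESeq2 1.42.0, no filter, a replicate block, a fit of the 2 groups alone, and a lymph node score as covariate. Others were limma-voom, always with quality weights per library (limma 3.58.1), leaving out each library, and 3 fits added after seeing the data.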

Additional observations from a re-analysis of the deposited data

Results flagged for a closer look

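In 5 of 44 groups of values checked, 1 sample lay far from the rest of its group; chance gives about 1 in 20. Slc5a7 reached 0.849 CPM in KO library 2, above the other 6 KO libraries. Acvr1c reached 439 CPM in 1 WT library. The mean log2(CPM + 1) of liver markers was highest at 0.790 in 1 KO library and that of mammary and skin epithelium markers highest at 1.73 in 1 KO library. The mean log2(CPM + 1) of lymph node markers was lowest at 0.890 in WT library 1.

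For 8 genes called on chow the KO effect on HFD differed from that on chow by the interaction test in edgeR. The differences of log2 fold changes were -1.38 for Pmepa1, -2.19 for Gm9696, 1.16 for Tmem45b, -1.83 for Kcne1l, -0.91 for Orm1, -1.16 for Prps1, 1.49 for Lrtm1 and -2.10 for Tfr2.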

How the results depend on the processing

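The 19 rises and 17 falls became 66 and 53 with DESeq2 and 215 and 57 with limma-voom with quality weights. They became 12 and 11 in a fit of the 2 groups alone and 63 and 39 without the 4 libraries low in lymph node transcript. Without the 2 HFD libraries high in Alb they were 38 and 26. Without the 3 WT libraries high in inflammatory transcript they were 5 and 24. With the lymph node score as covariate 49 genes rose. Leaving out 1 library gave 8 to 68 rises and 12 to 36 falls. Of 899 values of the 36 genes under all alternatives, 755 kept their call, 144 lost it and 0 changed sign; the cause was not tested. DESeq2 called 182 genes in epididymal fat (99 by edgeR), 569 for genotype by diet (304), 19 for genotype by depot (0), and 36 genes over the lists (14). Of its calls on chow, 79 were also called on HFD, 36 in epididymal fat and 70 with the AAV, in the direction of loss, against 30, 17 and 27 by edgeR. The liver marker score turned to -0.0892 at a pseudocount of 0.1. KO and WT replicate numbers did not pair the libraries, with correlations from -0.334 to 0.338 and 3 of 7 pairs over 0.1. Between the depots on chow, 1 of 7 KO pairs and 5 of 8 WT pairs of the same number were over 0.1. In KO 4 of 7 and in WT 2 of 8 libraries correlated best with their own number. The comparison of depots was fitted without pairing, and whether the depots share mice was not tested. With the replicate number as a block, 8 genes rose and 15 fell, and 17 of the called genes were also called with the AAV. Counts below 3 per library, such as those of Slc5a7 in KO, limit what can be said of low genes.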

Other observations

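Outside the 36 called genes, 26 genes had KO and WT values that did not overlap, 19 with KO above and 7 with KO below, at sizes of the log2 fold change between 0.10 and 1.74. Among genes not called on chow, the interaction of genotype and diet had its smallest p in one direction at Hp, an acute-phase plasma protein gene (-2.19), Ubd, a ubiquitin-like modifier gene (-2.33), Fam83d (-3.21), Ctsl, a lysosomal protease gene (-1.25), and Fam122b (-1.28). In the other direction these were Cyp2e1 (3.15) and Cyp2f2 (2.52), both cytochrome P450 genes, Elovl7, a fatty acid elongase gene (2.51), Nap1l5, an imprinted gene (2.22), and Ppp1r3b, a glycogen-targeting subunit gene of protein phosphatase 1 (1.32). Their log2 fold changes on chow ran from -0.29 to 0.84.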
